A study of Mus musculus with 8 samples.

Results

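The tight junction seals the space between neighbouring epithelial cells, and 9 of its genes were followed here in the lactating mouse mammary gland with and without the transcription factor Th-POK. These were the claudins Cldn1, Cldn3, Cldn4, Cldn5, Cldn7 and Cldn8, the occludin gene Ocln, the junctional adhesion molecule gene F11r and the scaffold gene Tjp1. They were taken by name, through the RefSeq accession that the array design gives each probe, and were 9 of the 18749 genes so named on the array. All 9 were well above background on all 8 arrays, so none was lost to the filter on dim probes that left 14135 genes tested.

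No. 4 mammary glands came from female C57/Bl6 mice at lactation day 1, 4 of them wild type (WT) and 4 deficient in Th-POK (knockout, KO), with 1 dam per array and a one-colour Agilent mouse expression array for each. Both genotypes were lactating, age matched and under no treatment that the labels name, and the age was not given in the sources used here. The KO mice came from an outside laboratory and no tissue-restricted Cre was named, so the loss of Th-POK was not stated to be limited to the gland. The arrays measured RNA of the whole gland, in which fewer cells of a type and less RNA per cell cannot be told apart.

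In a mammary alveolus the junction belt lies at the top of the luminal epithelial cells and parts milk from the fluid around the cells. Claudins set which ions and small solutes pass between cells, occludin and its relatives span the membrane beside them, and ZO proteins tie both to actin. During pregnancy the belt of the mammary epithelium is leaky, and it closes around birth when copious milk secretion begins.

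The labels were checked on the targeted gene. Zbtb7b, which encodes Th-POK, had a log2 signal of 9.90 to 10.42 on the WT arrays and was not well above background on any KO array, at least 81.5-fold lower (limma, adjusted p = 5.70e-09). Log2 signal throughout is the quantile-normalized log2 processed intensity, and levels of different probes are not set against each other. The share of probes detected well above background ran from 66.8% to 75.3% over the arrays, and arrays of a genotype correlated at r of 0.974 or more over genes. The 4 WT arrays shared 1 slide and the 4 KO arrays another, so slide and genotype cannot be told apart in any result below. Adjusted p-values come from limma over all 14135 genes tested with Benjamini-Hochberg adjustment, a gene was called at an adjusted p under 0.05, and a difference is KO minus WT on the log2 scale.

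All 9 genes had a higher mean in KO than in WT mammary glands, against 47.6% of all genes tested, with Cldn7 and Cldn8 turning to just below 0 when arrays were scaled to their 75th percentile. Of the 9, Cldn3 and Cldn4 passed the test. The differences ran from 0.06 for Cldn8 to 2.51 for Cldn4, with a median of 0.48 beside -0.02 over all genes. Those 2 called genes are 22.2% of the 9, beside 16.5% of all genes called in either direction and 7.53% called higher. None of the 9 was called lower, beside 8.94% of all genes. In 3 of the 9 (Cldn3, Cldn4 and F11r) every KO array lay above every WT array, as in 11.1% of all genes, where 24.0% did not overlap in either direction. With 9 genes these shares rest on small counts, and the 9 were chosen with earlier results of these data known.

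**Figure D1:**
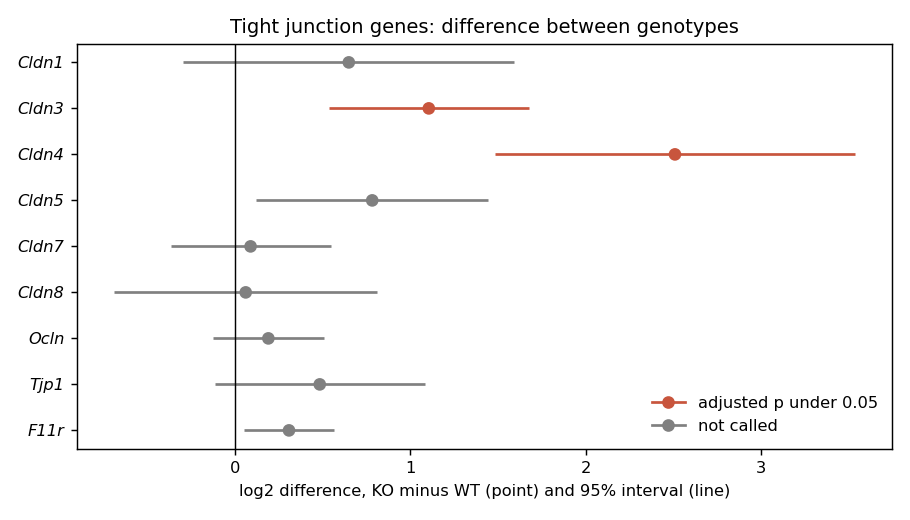
Difference in log2 signal (KO minus WT, horizontal axis) of the 9 genes as a point with its 95% confidence interval from limma as a line (n = 4 dams a genotype), the called genes in red and the others in grey. The interval lay above 0 for Cldn4, Cldn3, Cldn5 and F11r, and of these Cldn4 and Cldn3 passed the adjusted threshold.

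Cldn4 and Cldn3 are described first, and their promoters are shown because they are direct neighbours on mouse chromosome 5, with 0 protein-coding genes between them in the RefSeq table, and both rose in KO glands. That of F11r stands beside them as the other gene whose genotypes did not overlap. Each is the 250 bases before the RefSeq gene start in build GRCm38.p6, read 5′ to 3′ on the gene's own strand: chr5:134946935-134947184 on the minus strand for Cldn4, chr5:134985964-134986213 on the plus strand for Cldn3 and chr1:171437311-171437560 on the plus strand for F11r. Capitals mark the E-box that Snail-type repressors bind (CAGGTG, or CACCTG on the other strand) and the AP-1 motif (TGACTCA or TGAGTCA), and the AP-1 motif was picked after these sequences had been seen.
Cldn4: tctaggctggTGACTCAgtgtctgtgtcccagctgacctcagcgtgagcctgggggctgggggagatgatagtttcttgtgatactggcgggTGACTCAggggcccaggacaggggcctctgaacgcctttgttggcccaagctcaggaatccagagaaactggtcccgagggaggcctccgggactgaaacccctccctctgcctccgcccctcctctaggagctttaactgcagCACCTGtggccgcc
Cldn3: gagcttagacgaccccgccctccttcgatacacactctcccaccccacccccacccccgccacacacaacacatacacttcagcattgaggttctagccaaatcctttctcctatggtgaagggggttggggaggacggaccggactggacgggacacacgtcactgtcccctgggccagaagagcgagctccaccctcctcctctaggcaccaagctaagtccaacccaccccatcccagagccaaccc
F11r: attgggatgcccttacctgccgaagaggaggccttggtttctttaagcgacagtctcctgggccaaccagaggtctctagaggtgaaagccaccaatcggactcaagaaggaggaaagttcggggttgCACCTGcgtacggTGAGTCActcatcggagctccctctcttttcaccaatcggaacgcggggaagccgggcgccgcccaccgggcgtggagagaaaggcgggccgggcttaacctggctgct

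The Cldn4 window held 2 AP-1 motifs, starting 240 and 158 bases before the gene start, and 1 E-box starting 14 bases before it. The Cldn3 window held neither motif. In F11r an E-box lay 122 and an AP-1 motif 109 bases before the start. Of the 9 genes 8 had a window in the RefSeq promoter table (10 windows, since Cldn7 and Ocln have more than 1 start), and Cldn8 had none there. The E-box was in windows of Cldn4, Cldn7, Ocln and F11r and the AP-1 motif in those of Cldn4 and F11r. A window of Cldn7 and a window of Ocln, genes that were not called, each held 2 E-boxes. Among all 32851 windows of that length, 17.2% held the E-box and 2.06% at least 2 of them. The AP-1 motif was in 4.46%, and 0.167% held at least 2 AP-1 motifs. A match gives letters only and says nothing of whether a factor binds there.

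Cldn4 encodes claudin-4, a sealing claudin of tight epithelia, and showed the largest difference of the 9 genes. Its log2 signals were 7.79, 5.97, 7.70 and 7.34 on WT arrays 1 to 4 and 10.38, 9.69, 9.90 and 8.85 on KO arrays 1 to 4. The lowest KO array stood above the highest WT array, WT array 2 was the low end of its genotype and KO array 4 the low end of the other. The difference was 2.51 ± 0.45 (SE, n = 4 a genotype), a 5.69-fold higher signal with a 95% confidence interval of 2.79 to 11.6 (limma, adjusted p = 0.0149). Leaving out each array in turn kept the call, with differences of 2.10 (without WT array 2) to 2.79 (without KO array 4) and adjusted p-values of at most 0.0487. KO stood above WT in each of the 4 same-numbered pairs, by 2.60, 3.72, 2.20 and 1.51.

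Cldn3, which encodes claudin-3, another sealing claudin and a common component of mammary alveolar junctions, rose as well. Log2 signals were 13.18, 11.94, 12.95 and 12.83 on WT arrays 1 to 4 and 13.76, 13.95, 13.96 and 13.66 on KO arrays 1 to 4. The KO arrays lay close together and all above WT, while WT array 2 lay below the other WT arrays. The difference was 1.11 ± 0.25 (SE, n = 4 a genotype), 2.15-fold with a 95% confidence interval of 1.45 to 3.19 (limma, adjusted p = 0.0255). It was 0.84 without WT array 2. The call was lost without KO array 1, 2 or 3 (adjusted p = 0.0597, 0.0628 and 0.0734) and by the methods' t-test after Benjamini-Hochberg adjustment (adjusted p = 0.0590), with the direction kept. Without KO array 1, 2 or 3 Cldn3 differed by 1.13, 1.07 and 1.06. In the same fits 751, 953 and 516 of all genes were called, beside 2329 with all arrays.

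**Figure D2:**
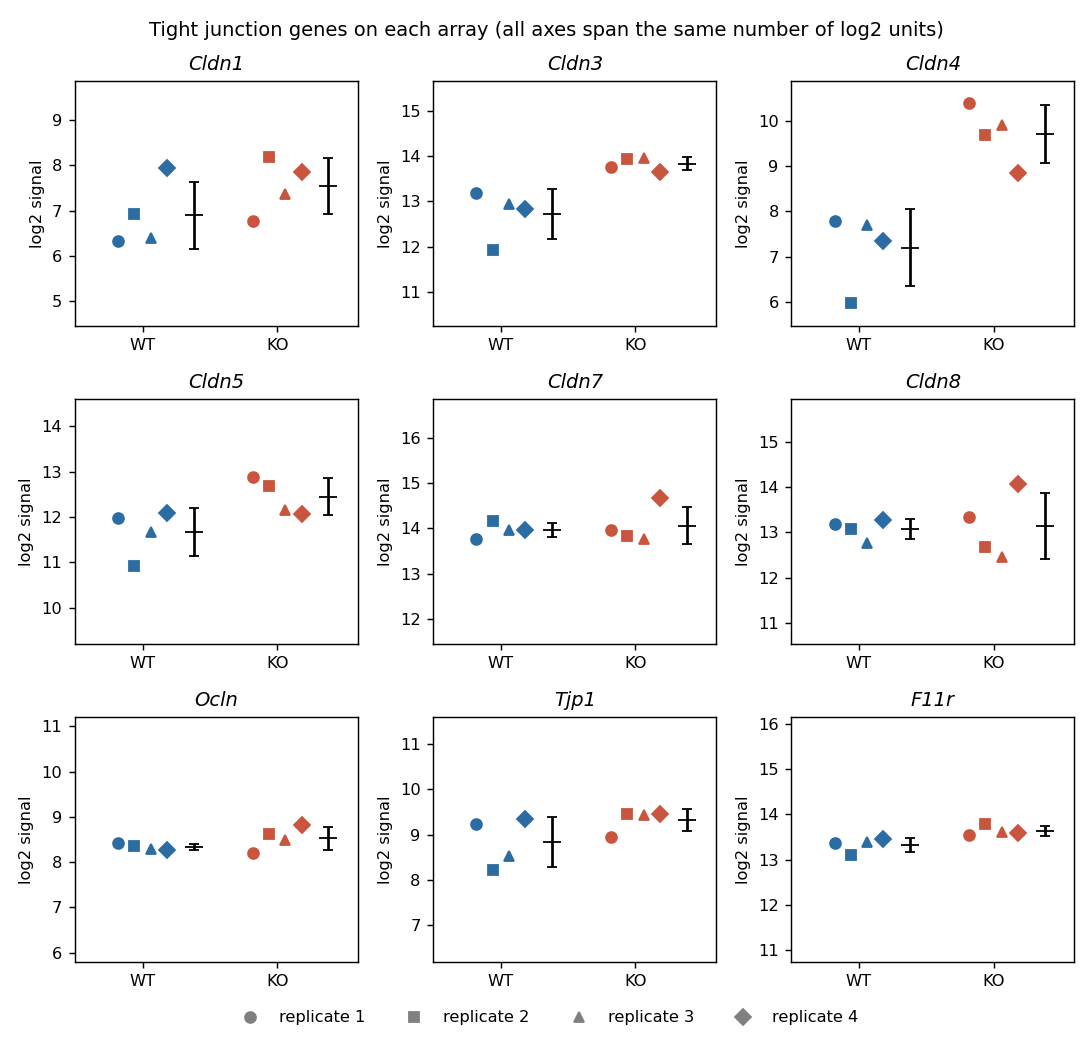
Log2 signal (vertical axis) of each of the 9 genes on the 4 WT and 4 KO arrays, 1 point per dam with a marker shape for each replicate number, and beside them the mean with bars of 1 SD (n = 4). The points of the genotypes were apart for Cldn3, Cldn4 and F11r and overlapped for the other genes.

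The other claudins of the set did not pass the test. Cldn5 encodes claudin-5, the main claudin of endothelial junctions. Its log2 signals were 11.98, 10.91, 11.66 and 12.10 on WT arrays 1 to 4 and 12.89, 12.68, 12.15 and 12.07 on KO arrays 1 to 4. KO arrays 1 to 3 stood above every WT array and KO array 4 did not. The difference was 0.78 with a 95% confidence interval of 0.12 to 1.45 (limma, adjusted p = 0.0922), and the alternative fits of it gave no call. The endothelium marker list overlapped between the genotypes: the mean over 8 endothelial markers was 10.29 to 10.47 in WT and 10.12 to 10.49 in KO glands, which differ by -0.04 on average (p = 0.800 in a two-sided exact permutation test). Pecam1 and Cdh5, which encode adhesion proteins of endothelial cells, differed by -0.03 and 0.01. The 8 markers ran from -0.47 for Kdr (limma, adjusted p = 0.0908) to 0.37 for Vwf (adjusted p = 0.182), and none was called. Taken relative to that list on the same array, Cldn5 differed by 0.82, with overlapping genotypes (two-sided exact permutation test, p = 0.0857).

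Cldn1, which encodes claudin-1, the claudin of the epidermal barrier, varied widely within each genotype. It gave 6.33, 6.92, 6.40 and 7.94 on WT arrays 1 to 4 and 6.76, 8.18, 7.38 and 7.86 on KO arrays 1 to 4. WT arrays 2 and 4 lay within the KO range, and KO arrays 1, 3 and 4 within the WT range. The difference of 0.65 had a 95% confidence interval of -0.29 to 1.59 (limma, adjusted p = 0.288), and a dimmer probe of Cldn1 differed by 0.53.

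Cldn7 and Cldn8 had the smallest differences. Cldn7 encodes claudin-7, which also lies along the basolateral membrane, and gave 13.77, 14.16, 13.97 and 13.97 on WT arrays 1 to 4 and 13.96, 13.83, 13.78 and 14.66 on KO arrays 1 to 4. Cldn8 encodes claudin-8, a claudin best known from the tight distal nephron, and gave 13.19, 13.08, 12.76 and 13.26 on WT arrays and 13.33, 12.68, 12.45 and 14.07 on KO arrays. KO array 4 was the highest of the 8 arrays for both genes, and the other KO arrays lay within or below the WT range or just above it. The differences were 0.09 for Cldn7 (95% confidence interval -0.37 to 0.55) and 0.06 for Cldn8 (-0.69 to 0.81), with adjusted p-values of 0.775 and 0.908 (limma). Neither had a settled direction: without KO array 4 they were -0.11 and -0.25, and with each array scaled to its 75th percentile they were -0.09 and -0.03. These intervals leave room for a change of either sign.

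Among the other membrane proteins of the set, F11r encodes JAM-A, an immunoglobulin-type adhesion molecule of the junction. Its log2 signals were 13.37, 13.10, 13.38 and 13.46 on WT arrays 1 to 4 and 13.54, 13.79, 13.61 and 13.59 on KO arrays 1 to 4. The genotypes did not overlap, with a narrow gap between WT array 4 and KO array 1. The difference was 0.31, with a 95% confidence interval of 0.05 to 0.57 (limma, adjusted p = 0.0894), so it was not called. Ocln encodes occludin, the first membrane protein found in tight junctions, and gave 8.43, 8.35, 8.29 and 8.26 on WT and 8.19, 8.62, 8.48 and 8.81 on KO arrays 1 to 4. KO array 1 was the lowest of all 8 and the other KO arrays were above every WT array. Ocln differed by 0.19 (95% confidence interval -0.13 to 0.51, limma, adjusted p = 0.351), and a dim second probe, well above background on 4 of 8 arrays and not tested, differed by 0.49.

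Tjp1 encodes ZO-1, the scaffold that binds claudins, occludin and JAM-A at the inner side of the membrane. It gave 9.23, 8.22, 8.53 and 9.35 on WT arrays 1 to 4 and 8.95, 9.45, 9.42 and 9.46 on KO arrays 1 to 4. KO array 1 stood below WT arrays 1 and 4, and the other KO arrays stood above all WT arrays. The difference was 0.48 with a 95% confidence interval of -0.12 to 1.08 (limma, adjusted p = 0.217). A second, dimmer probe of Tjp1 differed by 0.22, with an adjusted p of 0.136 in limma over 20836 probes. WT array 2 was the lowest WT array for 5 of the 9 genes, namely Cldn3, Cldn4, Cldn5, Tjp1 and F11r. With WT array 2 and KO array 4 left out together, Cldn4 differed by 2.38 (adjusted p = 0.00782) and Cldn3 by 0.90 (adjusted p = 0.0277) in limma, and the other 7 genes were again not called.

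Because the junction belt of an alveolus lies in luminal epithelial cells, the luminal epithelial signal of each gland was set beside the 9 genes. For Cldn5, the main claudin of endothelial junctions, the endothelium list was used as well, as given above. The mean log2 signal of 8 luminal markers was 13.22 to 13.64 in WT and 13.73 to 13.93 in KO glands, a difference of 0.37 with no overlap (two-sided exact permutation test, p = 0.0286, the smallest p that 4 against 4 arrays can give, and 0.129 after Benjamini-Hochberg adjustment over 9 lists). All 8 were well above background on all arrays and 7 of 8 were higher in KO on average. Over all genes tested, 47.6% were higher on average and 7.53% were called higher. The 3 markers called higher were Krt18, a luminal keratin (0.67, adjusted p = 0.0349), Epcam, an epithelial adhesion molecule (0.52, adjusted p = 0.0403), and Cdh1, which encodes E-cadherin of the neighbouring adherens junction (0.88, adjusted p = 0.0143, all limma). Krt8, the keratin partner of Krt18, differed by 0.46 and was not called (adjusted p = 0.0988). Elf5, a transcription factor of alveolar luminal cells, was the exception in direction at -0.35 (95% confidence interval -0.66 to -0.04, limma, adjusted p = 0.107), and Esrp1 differed by 0.04.

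Relative to this list on the same array, Cldn4 was still higher by 2.14 and Cldn3 by 0.74, and for both every KO array stood above every WT array. Each had an exact permutation p = 0.0286, or 0.129 after adjustment over the 9 genes, which 4 arrays a genotype cannot bring under 0.05 with 2 such genes. The other 7 overlapped. Cldn5 (0.41), Cldn1 (0.28) and Tjp1 (0.11) kept a positive difference, while F11r (-0.06), Ocln (-0.18), Cldn7 (-0.28) and Cldn8 (-0.31) had a negative one. The sign for Tjp1 was not settled, at -0.03 relative to Epcam alone and -0.01 without WT array 2 or 3. With the list as a covariate in limma instead, a fit added after the data had been seen, Cldn4 differed by 1.20 (adjusted p = 0.798) and Cldn3 by 0.11 (adjusted p = 0.947). In that fit the covariate itself did not overlap between the genotypes, and 8 of 14135 genes were called.

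**Figure D3:**
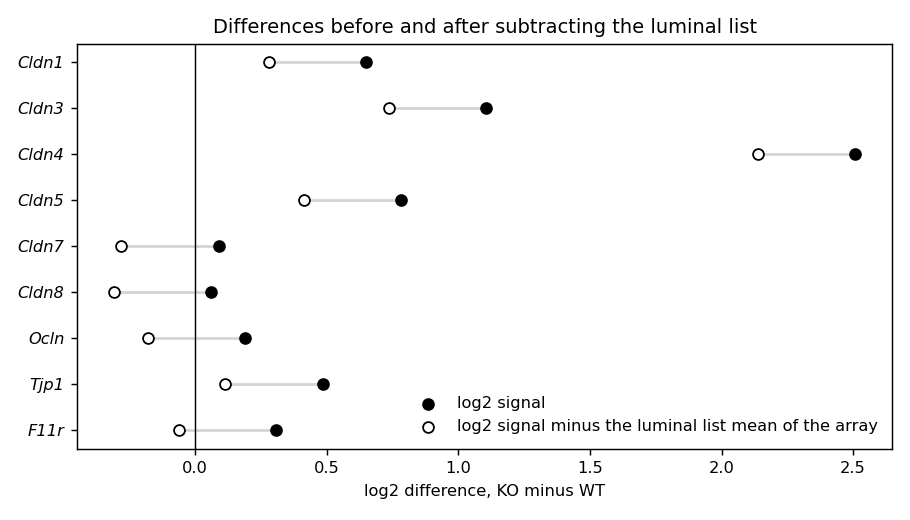
Difference in log2 signal (KO minus WT, horizontal axis) of each of the 9 genes as measured (filled points) and relative to the mean of 8 luminal markers on the same array (open points). Relative to the markers Cldn4 (2.14) and Cldn3 (0.74) stayed higher, and F11r, Ocln, Cldn7 and Cldn8 lay below 0.

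The marker lists of other cells were read in the same glands. The neutrophil list stood at 7.52 to 8.70 in WT and 9.97 to 11.24 in KO glands with no overlap, a difference of 2.30 with an exact permutation p = 0.0286 and 0.129 after adjustment over the 9 lists (6 of 8 markers tested, all 6 higher on average, 3 called higher). Of those 6 markers, 2 were not well above background on any WT array, and the median of the markers in place of their mean gave a difference of 1.05. Among all genes tested 47.6% were higher on average and 7.53% were called higher. The adipocyte list was 13.12 to 13.86 in WT and 13.68 to 13.93 in KO glands, a difference of 0.34. The fibroblast list was 12.90 to 13.23 and 13.15 to 13.80, a difference of 0.36. Both overlapped between genotypes, each with an exact permutation p = 0.0571 and 0.129 after adjustment over the 9 lists. Myoepithelial (-0.23), macrophage (0.21), T cell (-0.33) and B cell (0.04) lists overlapped between genotypes. The part of these cells in the values of the 9 genes was not tested.

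The wider junction was followed through 55 further genes in 3 lists, of which 48 were tested. Of these, 11 were called higher and 1 lower, which is 25% beside 16.5% of all genes. Every KO array was above every WT array for 13 of them, and below for 1, beside 11.1% and 12.9% of all genes. These lists too were chosen with earlier results of these data known, so the shares are a description only.

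Of the other claudins 11 of 18 were tested, with a median difference of 0.08, and 3 were called (27.3%, beside 16.5% of all genes). Cldn23, which encodes a claudin of epithelia, rose by 1.56, from 6.57 to 8.06 on the WT arrays to 8.89 to 9.19 on the KO arrays (limma, adjusted p = 0.0149). Cldn10, whose protein forms ion-selective paracellular channels, rose by 1.22, from 7.03 to 8.29 up to 8.34 to 9.22 (adjusted p = 0.0406). Cldn14, a claudin of the inner ear and kidney, was the 1 tested junction gene called lower, at 6.46 to 6.98 in WT and 5.78 to 5.98 in KO glands, a difference of -0.82 (adjusted p = 0.0104). The genotypes did not overlap for any of these 3. Cldn2, Cldn6, Cldn16 and Cldn18 were well above background on at most 1 array, Cldn15 lost a spot marked as an outlier (with it kept, a difference of 0.13, adjusted p = 0.686), and Cldn20 and Cldn34a had no named probe.

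Of the other membrane proteins, 9 of 11 were higher on average, 5 were called higher (45.5%, beside 7.53% of all genes called higher) and 0 lower, with a median of 0.54. The 2 lower on average were Igsf5 (-0.55, 95% confidence interval -0.93 to -0.16, limma, adjusted p = 0.0579) and Esam (-0.05, adjusted p = 0.770). Neither was called, and both overlapped between genotypes. Cxadr, which encodes an immunoglobulin-type adhesion molecule related to JAM-A and serving as a virus receptor, rose by 1.36 (limma, adjusted p = 0.0346). Crb3, a small membrane protein of the apical polarity complex, rose by 0.71 (adjusted p = 0.0185). Of the genes for proteins of tricellular contacts, Marveld2 (tricellulin) rose by 0.62 (adjusted p = 0.0251) and Lsr (angulin-1) by 0.59 (adjusted p = 0.0430). The other angulins were not called and overlapped between genotypes, with differences of 0.54 for Ildr1 (adjusted p = 0.157) and 0.30 for Ildr2 (adjusted p = 0.281). Marveld3, a relative of occludin, rose by 0.54 (adjusted p = 0.0333), and this call was lost (adjusted p = 0.0589) when same-numbered arrays were paired as blocks. Under the same blocks Cldn22 (0.69, adjusted p = 0.0313, and 0.387 unpaired) and Prkcz, an atypical protein kinase C of the polarity list (0.57, adjusted p = 0.0404, and 0.0774 unpaired), passed the threshold. Occludin itself, of the same protein family as Marveld2 and Marveld3, had shown 0.19.

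In the plaque and polarity list 23 of 26 genes were higher on average, but 4 were called higher and 0 lower, with a median of 0.22. That is 15.4% called, beside 16.5% of all genes called in either direction and 7.53% called higher. Afdn, which encodes afadin, an actin-binding partner of nectins and ZO-1, rose by 1.06 (limma, adjusted p = 0.0139). Arhgef2, an exchange factor for RhoA held at the junction by cingulin, rose by 0.70 (adjusted p = 0.0372). Cgnl1, which encodes paracingulin, rose by 0.61 (adjusted p = 0.0233), and Magi2, a multi-PDZ scaffold, rose by 0.57 (adjusted p = 0.0202). The genotypes overlapped for Arhgef2 and were apart for the other 3.

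Most of these 12 calls were close to the threshold. Afdn, Cldn14 and Cldn23 were called whichever array was left out, and the other 9 lost the call in at least 1 such limma fit. Over all genes the calls numbered 2329 with all arrays and 516 (without KO array 3) to 3075 (without WT array 1) in such fits. They numbered 751, 762, 953 and 984 without KO array 1, WT array 2, KO array 2 and WT array 3. Crb3 lost its call without KO array 3 (adjusted p = 0.0581). Cgnl1 lost it without WT array 2 or KO array 2 or 3 and Magi2 without WT array 2 or KO array 1 or 3 (adjusted p at most 0.0692 and 0.0621). Marveld2 and Marveld3 lost it without WT array 2 or 3 or KO array 1, 2 or 3 (at most 0.0660 and 0.0823). Cldn10 and Cxadr lost it without WT array 2, 3 or 4 or KO array 1, 2 or 3 (at most 0.111 and 0.0944). Arhgef2 lost it without WT array 2, 3 or 4 or KO array 1, 3 or 4 (at most 0.101), and Lsr kept it only without WT array 1 (at most 0.115 otherwise). With the mean of all probes of a gene in place of the brightest, Arhgef2 differed by 0.43 (adjusted p = 0.155) and Cxadr by 1.10 (adjusted p = 0.0630), and neither was called. Lsr differed by 0.45 (adjusted p = 0.0655) with 75th percentile scaling. Cldn10, Lsr, Cxadr and Arhgef2 were not called when dim probes were kept, and by the methods' t-test these 4 and Marveld3 were not called.

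**Figure D4:**
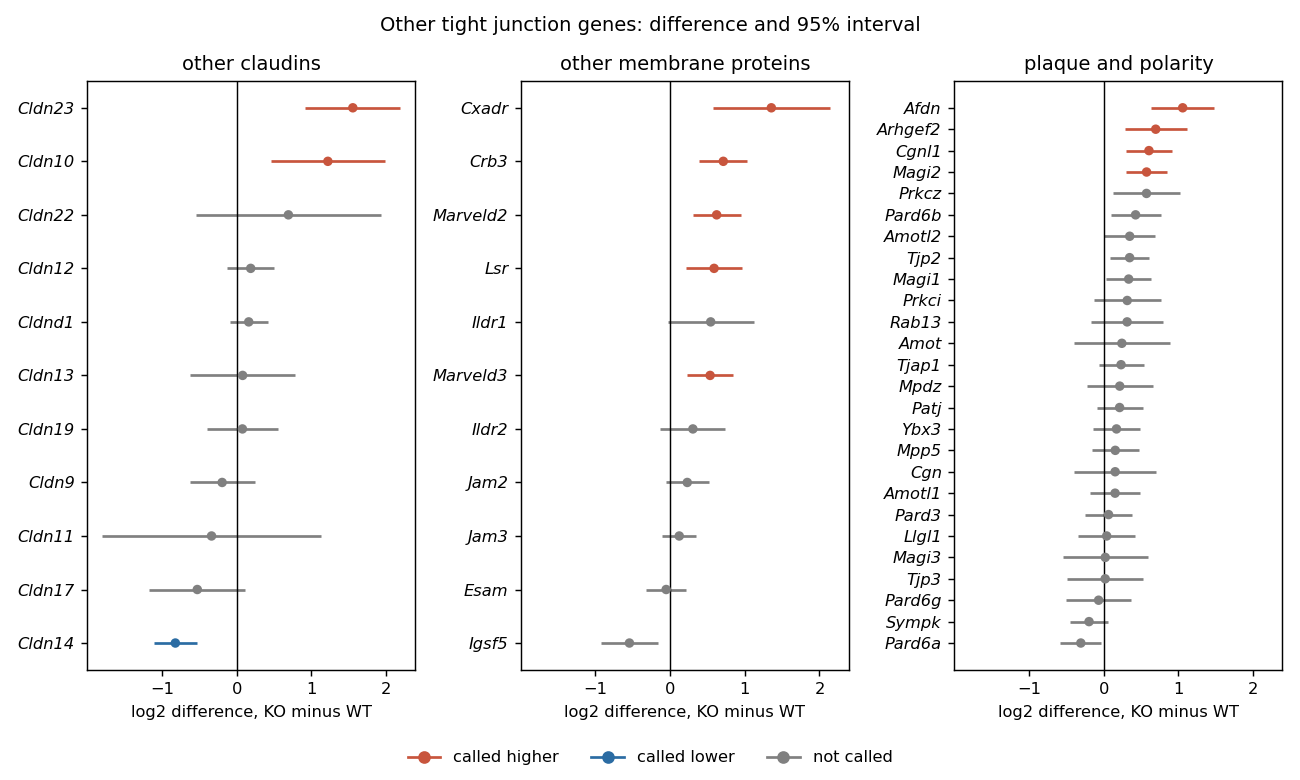
Difference in log2 signal (KO minus WT, horizontal axis) of the 48 further tight junction genes tested, by list, as points with 95% confidence intervals from limma (n = 4 dams a genotype), called genes in red (higher) or blue (lower) and the others in grey. Of the called genes Cldn14 lay below 0 (-0.82) and the other 11 above it, from 0.54 for Marveld3 to 1.56 for Cldn23.

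The genes around Cldn4 and Cldn3 on chromosome 5 were read after their values had been seen, in the order of the RefSeq table. Mettl27, the gene beyond Cldn4, differed by 0.53 (limma, adjusted p = 0.155) and Cldn13, the one after it, by 0.08 (adjusted p = 0.870). Abhd11, the gene beyond Cldn3, differed by -0.28 (adjusted p = 0.117). Farther out, Tmem270 fell by 1.25 (adjusted p = 0.0104), Stx1a rose by 1.02 (adjusted p = 0.0299) and Bud23 fell by 0.68 (adjusted p = 0.0202). Of these neighbours Tmem270, Stx1a and Bud23 were called, in both directions, and Mettl27, Cldn13 and Abhd11 were not, beside 16.5% of all genes called. These are few genes, and a shared change of the region was not tested.

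Over the 8 arrays genes whose log2 signal followed Cldn4 closely were Synj2 (Pearson r = 0.996), Gadd45a (0.988), Fkbp9 (0.988) and Cpsf4l (0.987). Of these, all but Fkbp9 were themselves called higher in KO glands, by 0.83 (Synj2) to 1.61 (Cpsf4l) in limma. Since Cldn4 differs between the genotypes, such an r is a description of these arrays only, and the points share the genotype split and its slides. With the genotype means removed, r was 0.984 for Synj2, 0.947 for Gadd45a, 0.942 for Fkbp9 and 0.955 for Cpsf4l. The genes were picked for the highest r over all genes tested, so these values are no test.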

How the data were processed

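RNA of whole mammary glands was measured on 8 one-colour Agilent Whole Mouse Genome 4x44K arrays, and genotype and replicate number were read from the sample labels. The authors deposited the scanner output of Agilent Feature Extraction (version 10.7.3.1 in the file headers), in which background had been subtracted and a spatial trend removed from the processed intensities, array by array. A second deposited table held log2 values that had been quantile-normalized in GeneSpring per the methods. Its columns had a median of 6.33, correlated with their own arrays at r of at least 0.999996 and served as an alternative. The design named mouse build mm9 and the gene and promoter tables were of GRCm38.p6, so coordinates are given for promoters of the latter alone.

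The log2 processed intensities of non-control spots were quantile-normalized between arrays in R 4.3.3 with limma 3.58.1. Spots marked as outliers were left out and the remaining spots of a probe averaged. Of 41174 probes, 27479 matched 18749 gene symbols through their accession. Probes were kept when all 4 arrays of either genotype were well above background, and the brightest probe stood for its gene (14135 genes). Genotypes were compared with lmFit and eBayes and Benjamini-Hochberg adjustment over all genes, and single values with exact two-sided permutation tests over 70 labelings. No spot was saturated (0), and 0 columns of per-sample values were left unassigned. The unpaired limma fit was tested on simulated data with changes of known size. Precision is limited by 4 arrays a genotype, and p-values measure the spread between these dams.

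The 9 genes and all lists were chosen with earlier results of these data known. Named genes were the 9, every called gene of the further lists, and the 5 genes most correlated with the called gene of smallest p, of which 1 is not reported here. Ildr1, Ildr2, Igsf5, Esam, Cldn22, Prkcz, Kdr, Vwf, Elf5 and Esrp1 were named after their values had been seen. Deviations of same-numbered arrays from their genotype means correlated at 0.22, 0.16, 0.30 and 0.28, each over 0.1. Other pairs had a mean of -0.08. Deviations cancel out within a genotype, so that mean is tied to the same-number values and is no separate contrast. The labels do not say what a number stands for. A fit that took the numbers as pairs, with the number as a block, was run beside the unpaired fit. The exact permutation tests were unpaired. Other alternatives were scaling to the 75th percentile, normexp background correction (offset 50, on median signals because the files used here held no mean signals), the authors' table, other filters and probe rules, marked spots kept, array weights, the methods' t-test and each array left out. A slide block could not be fitted, since each genotype had its own slide.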

Additional observations from a re-analysis of the deposited data

Results flagged for a closer look

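In 62 groups of 4 arrays (9 junction genes of the set, 12 called genes of the wider lists and the 9 cell type lists among them) the highest or lowest array was set against its distance to the rest, a rule by which chance flags about 1 in 20 groups. It picked 3. For Tjp1, KO array 1 had a log2 signal of 8.95 against 9.42 to 9.46 on the other KO arrays. For Marveld2, KO array 2 stood at 10.10 against 9.84 to 9.87. For Magi2, WT array 2 stood at 7.13 against 7.38 to 7.43 on the other WT arrays.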

How the results depend on the processing

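Cldn4 was called higher under every alternative named in the methods above and lost the call only with the luminal list as a covariate, which was added after the data had been seen. Of the 9 genes 2 were called higher in the unpaired fit, 1 by the methods' t-test, 1 to 2 with each array left out and 0 with the covariate. None was called lower in any fit. Other claudins called higher numbered 1 by the t-test, 1 to 2 with each array left out, 1 without WT array 2 and KO array 4 together and 0 with the covariate, which also left 0 called lower. Other membrane proteins called higher numbered 3 with no filter on dim probes, 4 with 75th percentile scaling (Lsr lost), 4 with the mean of all probes (Cxadr lost), 2 by the t-test, 0 to 5 with each array left out, 0 without the pair of arrays and 0 with the covariate. Those called lower numbered 1 with normexp, 1 with array weights and 0 to 1 with each array left out. Plaque and polarity genes called higher numbered 8 with array weights, 1 to 8 with each array left out, 0 without the pair and 0 with the covariate. In the fit with each replicate number a block (the pairing), Marveld3 lost its call (adjusted p = 0.0589), while Cldn22 (0.0313) and Prkcz (0.0404) gained one, for 3 other claudins, 4 other membrane proteins and 5 plaque and polarity genes called higher. No other gene of the 9, the 48 further ones or the named ones like Cldn4 changed its call. The causes of these shifts were not tested.

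Over all genes, 2329 were called in the unpaired fit, 2764 with the block, 1766 with no filter, 1389 by the t-test, 3840 with array weights, 909 without the pair of arrays and 8 with the covariate. Leaving out 1 array gave from 516 (without KO array 3) to 3075 (without WT array 1), with 751, 762, 953 and 984 without KO array 1, WT array 2, KO array 2 and WT array 3. Of all calls 45.7% were higher in KO, and 41.1% after scaling to the 75th percentile.

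Signs turned for Cldn7 (-0.090 with 75th percentile scaling, -0.025 with array weights, -0.11 to 0.18 with each array left out, -0.048 without the pair), Cldn8 (-0.034, -0.078, -0.25 to 0.29 and -0.25 in the same order) and Tjp1 (-0.26 with the covariate). Relative to luminal markers Tjp1 was -0.034 against Epcam alone and -0.013 to 0.29 with each array left out. The B cell list was -0.39 as a median and -0.066 to 0.15, and the endothelium list -0.082 to 0.042, with each array left out. None of these was called. Probes near background are the least certain.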
